A study of Mus musculus with 6 samples.

Results

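The genes described here are 9 members of the Polycomb group, known as repressors of the Cdkn2a locus. They are Bmi1, Ring1, Rnf2, Cbx2, Cbx7 and Cbx8 of Polycomb repressive complex 1 (PRC1), and Ezh1, Ezh2 and Suz12 of Polycomb repressive complex 2 (PRC2). They were taken by name, with no cut on their measured values, from 22180 genes on the array that carry a single gene symbol. The list was chosen with earlier results of these data known. All 9 were measured, each by 1 probe set. Expression was profiled on 6 whole-transcript arrays of mammary basal cells, the outer layer of the mammary epithelium, from adult virgin female mice aged 8 to 14 weeks. Wild type mice gave 3 arrays, and mice of genotype Trp53-/-, p16ink4a-/- and p19arf-/- gave the other 3, here called the knockout. By its labelled genotype the knockout lacks p53 and both products of Cdkn2a, the kinase inhibitor p16Ink4a and the p53 activator p19Arf. Digested glands were depleted of most CD45, CD31 and TER119 positive cells, and basal cells were then sorted by flow cytometry with antibodies that included CD49f and CD24. The titles call the arrays biological replicates. How many mice went into each array, and how the alleles were made, are not given in the sources used here.

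Polycomb proteins keep genes silent through marks on histones. Ezh1 and Ezh2 are the alternative catalytic subunits of PRC2 and methylate histone H3, with Suz12 as a scaffold they need. Cbx proteins of PRC1 bind that methyl mark, and the Ring1 or Rnf2 subunit, paired with a partner such as Bmi1, places ubiquitin on histone H2A. Cdkn2a is a classical target: loss of Bmi1 raises p16Ink4a and p19Arf, and in the mammary gland Bmi1 is known for its part in the renewal of stem and progenitor cells. Ezh2 is known as a gene of dividing cells and an E2F target, whereas Ezh1 is also made in resting cells. The comparison asks whether the repressors themselves differ once their target and p53 are gone.

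RefSeq promoter windows (assembly GRCm38.p6) were given for 8 of the 9 genes, all but Cbx2, and the 250 bases before the annotated start were searched on both strands for a few short motifs. The 5 windows printed here belong to Bmi1, the best known repressor of the locus, and to 4 genes whose signals varied most or moved alike across the arrays. All lie upstream of the first exon of their gene and are written 5′ to 3′ on the strand of the gene. Capitals mark the E-box CACGTG and the CCAAT box, which reads ATTGG on the other strand.
Bmi1, chr2:18676768-18677017, plus strand: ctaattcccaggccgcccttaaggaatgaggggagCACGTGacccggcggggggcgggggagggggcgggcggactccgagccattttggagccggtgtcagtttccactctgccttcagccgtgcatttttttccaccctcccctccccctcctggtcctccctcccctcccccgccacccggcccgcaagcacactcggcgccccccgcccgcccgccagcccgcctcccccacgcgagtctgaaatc
Cbx7, chr15:79932647-79932896, minus strand: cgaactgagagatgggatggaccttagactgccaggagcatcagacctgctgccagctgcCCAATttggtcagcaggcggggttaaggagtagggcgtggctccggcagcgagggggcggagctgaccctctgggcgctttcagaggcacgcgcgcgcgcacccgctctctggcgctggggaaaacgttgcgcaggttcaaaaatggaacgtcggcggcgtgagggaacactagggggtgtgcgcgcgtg
Cbx8, chr11:119040914-119041163, minus strand: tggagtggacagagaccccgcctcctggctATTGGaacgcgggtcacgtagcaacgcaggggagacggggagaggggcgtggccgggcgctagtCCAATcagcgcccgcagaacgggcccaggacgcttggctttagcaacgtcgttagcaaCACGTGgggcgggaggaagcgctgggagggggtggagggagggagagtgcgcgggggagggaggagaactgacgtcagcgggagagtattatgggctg
Ezh1, chr11:101226464-101226713, minus strand: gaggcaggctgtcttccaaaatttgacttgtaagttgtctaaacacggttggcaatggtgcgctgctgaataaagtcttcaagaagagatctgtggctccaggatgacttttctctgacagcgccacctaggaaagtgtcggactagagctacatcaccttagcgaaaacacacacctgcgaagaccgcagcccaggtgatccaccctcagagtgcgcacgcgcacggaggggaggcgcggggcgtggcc
Ezh2, chr6:47595031-47595280, minus strand: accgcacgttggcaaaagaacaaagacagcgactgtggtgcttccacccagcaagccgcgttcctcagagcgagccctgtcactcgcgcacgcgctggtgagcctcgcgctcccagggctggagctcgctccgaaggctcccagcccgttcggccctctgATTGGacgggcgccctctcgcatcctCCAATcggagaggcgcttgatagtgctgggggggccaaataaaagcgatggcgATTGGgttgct

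The Ezh2 window held 3 CCAAT boxes, beginning 90, 64 and 11 bases before the start, and the Cbx8 window held 2. A CCAAT box was found in 4 of the 8 windows, those of Cbx7, Cbx8, Ezh2 and Suz12, and in 33.8% of all 32851 promoter windows of that length. The E-box was found upstream of Bmi1 and Cbx8 and in 6.02% of all windows. The E2F letters TTTCCCGC, TTTCGCGC, TTTGCCGC and TTTGGCGC, searched together, matched 1 of the 8 windows, that of Suz12 at 219 bases before the start, and 1.86% of all windows. The GC box GGGCGG, left in lower case above, was found in 6 of the 8 windows, all but those of Ezh1 and Ezh2, and in 32.7% of all windows. No match of one motif overlapped a match of another in the 8 windows, though 2 pairs of GC boxes overlapped each other upstream of Bmi1. The consensus p53 response element, a pair of half-sites with up to 13 bases between them, matched 0 of the 8 windows and 0.0639% of all windows. The windows were rich in CpG, with 14 in Ezh1 and 37 in Suz12 as the lowest and highest counts, where the median over all windows was 6. These matches describe letters in the windows and carry no evidence of binding.

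Values are on the log2 scale, so that a difference of 1 is a 2-fold change, and signals of different probe sets cannot be ranked against each other. The median of an array over all rows was 5.22 at the lowest and 5.39 at the highest, and the correlation between arrays, across genes, between 0.971 and 0.988. As a guide to the signal of probes without a transcript, 1105 odorant receptor genes had a median of 3.43 and a 95th percentile of 5.53, and the mean of each of the 9 Polycomb genes lay above that percentile. The basal markers Krt14 and Trp63 had wild type means of 13.4 ± 0.122 (SD, n = 3) and 7.52 ± 0.412 and knockout means of 13.3 ± 0.0391 and 7.87 ± 0.283, and the mean of 13 basal markers lay between 10.19 and 10.52 on all arrays. Luminal markers were present beside them: the mean of 13 such genes was 8.16, 9.23 and 9.0 on wild type replicates 1, 2 and 3, against 8.54, 8.67 and 8.16 for the knockout, with 13 of 13 lower in the knockout mean. That split moved with single arrays. It was 5 higher and 8 lower without wild type replicate 2, and 3 and 10 without knockout replicate 3, but stayed 0 and 13 without wild type replicate 1. All 6 fibroblast markers had a higher mean in the knockout, with list means of 6.44 to 6.84 in wild type and 7.03 to 7.24 in knockout arrays, and their part in the values below was not tested. The lists for endothelial, immune and adipocyte cells had 4 of 5, 5 of 7 and 3 of 4 genes higher in the knockout mean. Their list means were 5.02 to 5.30, 5.01 to 5.31 and 5.76 to 5.96 in wild type arrays. In knockout arrays they were 5.25 to 5.42, 5.23 to 5.43 and 6.18 to 6.30. Mean signal was no higher than the odorant receptor guide for 3, 6 and 2 of these genes. Among the adipocyte markers Fabp4 had a log2 difference of 1.31, and Cidec, Plin1 and Adipoq had 0.13, 0.09 and -0.05. For hormone-sensing luminal cells 6 of 6 markers were lower, with list means of 6.05 to 7.64 in wild type and 6.10 to 6.84 in knockout arrays. Without wild type replicate 2 the split was 2 higher and 4 lower. For luminal progenitors 3 of 8 were higher, with list means of 7.07 to 7.49 in wild type and 7.05 to 7.84 in knockout arrays. Lalba and Csn3 had log2 differences of 1.94 and 0.84, whereas 5 of the 8 were lower and the list median was -0.08. In bulk samples, fewer cells of a type and less RNA per cell cannot be told apart.

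None of the 9 Polycomb genes passed the test of a difference between the genotypes. With limma, 0 were higher and 0 lower at an adjusted p under 0.05, as were 0% and 0% of all genes tested. At an unadjusted p under 0.05 there were again 0 of the 9, against 3.32% of all genes (736, or 1112 with replicate number as a block). The groups overlapped for each of the 9, whereas 7.68% of all genes had groups that did not overlap. Each adjusted p was 1.0 (limma), and the exact two-sided permutation p lay between 0.3 for Cbx2 and 1 for Ring1, where 0.1 is the smallest that 3 arrays against 3 allow.

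**Figure D1:**
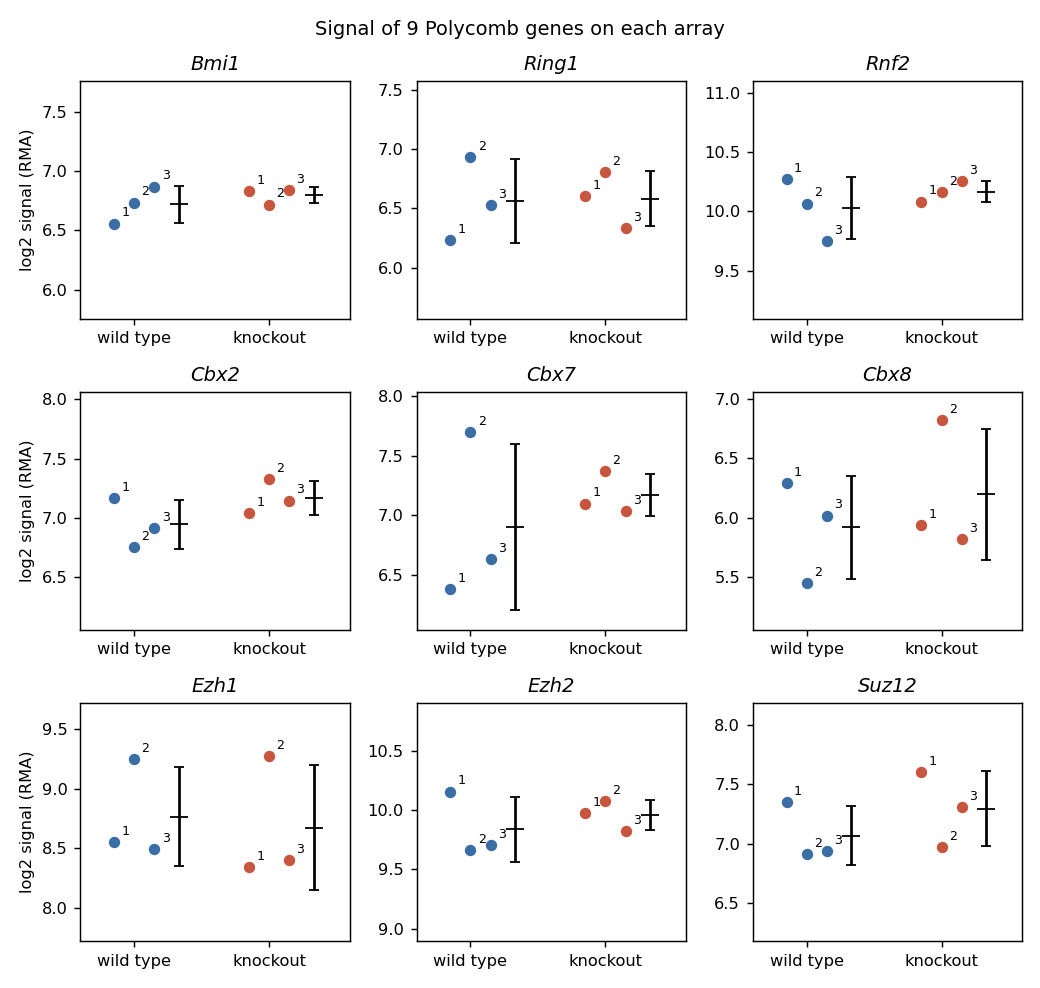
Log2 signal (vertical axis, a span of 2 log2 units in every panel) of each of the 9 Polycomb genes on the 3 wild type (blue) and 3 knockout (red) arrays, numbered by replicate, with the mean and SD of each genotype as a black bar. The genotypes overlap in all 9 panels, and the arrays of Cbx7, Cbx8 and Ezh1 spread most.

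The intervals give the range of differences that the arrays leave possible, 1 gene at a time. They do not say how large a change the adjusted test over all genes would have found. In the main fit the 95% interval of the log2 difference included 0 for all 9 genes. It lay within -1 and 1, so that a 2-fold change in either direction was outside it. Over all genes, 95.2% had intervals within these bounds. For Bmi1, Ring1, Rnf2 and Ezh2 the interval also lay within a 1.5-fold change. It was widest for Cbx7, from 0.733 to 1.97 times the wild type level, for Cbx8, from 0.756 to 1.94 times, and for Ezh1, from 0.590 to 1.49 times. The upper bounds of Cbx7 and Cbx8 thus came close to a 2-fold change. Without knockout replicate 3 their log2 differences were larger, at 0.33 (standard error 0.370) and 0.46 (standard error 0.325). Cbx7 moved further when wild type replicate 2 was dropped, to 0.66 (standard error 0.185). In that fit 0 lay outside its 95% interval (limma unadjusted p = 0.0078, adjusted 0.9996). Unadjusted p was under 0.05 there for 953 of all genes. Dropping wild type replicate 1 instead took Cbx7 to 0.0048 (standard error 0.304). For Cbx7 and Cbx8 a 2-fold rise was therefore not firmly outside the interval. For Ezh1, whose arrays were highest at replicate 2 in both genotypes, the interval depends on the pairing: with replicate number as a block its standard error fell from 0.296 to 0.156 and the log2 interval ran from -0.45 to 0.26, within a 1.5-fold change. With the block the interval of Cbx7 narrowed to 0.850 to 1.70 times, that of Cbx8 ran from 0.745 to 1.97 times, and those of Cbx2 and Suz12 reached 1.57 and 1.52 times. The median log2 difference of the 9 genes was 0.14, beside -0.01 over all genes, and 8 of the 9 differences were above 0, beside 48.3% of all genes. Between single arrays of the same number, 4, 6 and 5 of the 9 genes were higher in the knockout at replicates 1, 2 and 3. The shares over all genes were 47.2%, 49.9% and 50.1%. Counts from single arrays are not a like measure to the count from means. Leaving out 1 array at a time, between 6 and 9 of the 9 differences were above 0, and the median lay between 0.11 and 0.26.

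**Figure D2:**
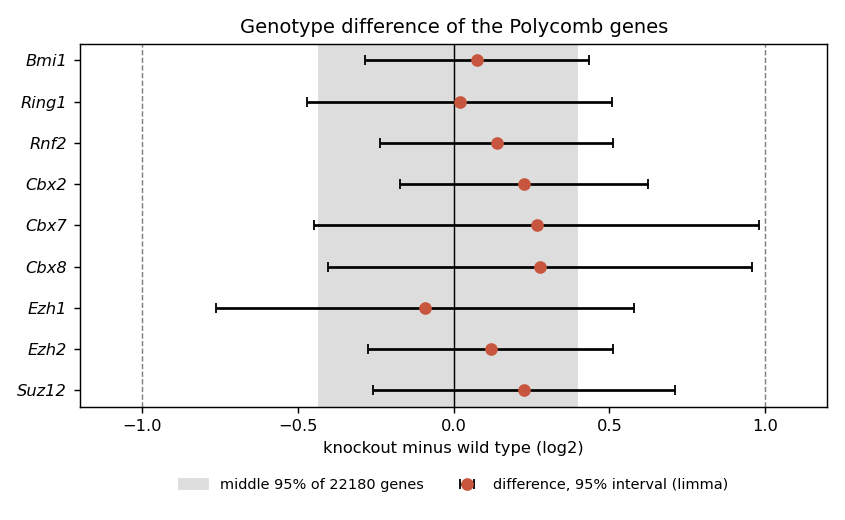
Knockout minus wild type difference on the log2 scale (points) with its 95% limma interval (bars) for the 9 Polycomb genes, over a grey band that holds the middle 95% of all 22180 genes, from -0.43 to 0.40. Every interval crosses 0 and stays inside the dashed lines at -1 and 1.

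Bmi1, the partner that stimulates the ubiquitin ligase of PRC1, was the most even of the set. Its log2 signal was 6.56, 6.73 and 6.87 in wild type replicates 1 to 3 and 6.83, 6.72 and 6.84 in the knockout, or 6.72 ± 0.157 (SD, n = 3) and 6.79 ± 0.0674. The knockout arrays thus lay inside the wild type range. The difference was 0.07 with a standard error of 0.159 and an interval of -0.29 to 0.43, and it was -0.0073 without wild type replicate 1. Its pooled SD within genotypes was 0.121, larger than that of only 16.3% of genes, where the median over genes was 0.207.

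Ring1 and Rnf2 encode the alternative ligase subunits of PRC1. Ring1 read 6.23, 6.93 and 6.52 in wild type and 6.60, 6.80 and 6.34 in knockout cells, with replicate 2 the highest in both. Its difference of 0.02 had a standard error of 0.216 and an interval of -0.47 to 0.51, and it turned to -0.15 when wild type replicate 1 was left out, to -0.00040 when wild type replicate 3 was, and to -0.092 when knockout replicate 2 was. Rnf2, whose product is also called Ring1B, read 10.27, 10.07 and 9.75 in wild type and 10.08, 10.16 and 10.26 in knockout cells. Wild type replicate 3 was the lowest of the 6, and the difference of 0.14 (standard error 0.165, interval -0.24 to 0.51) was -0.0010 without that array.

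The Cbx genes encode the readers of the methyl mark, and Cbx7 and Cbx8 had the largest mean differences of the 9, with groups that overlapped. Cbx2 read 7.17, 6.76 and 6.92 in wild type and 7.04, 7.33 and 7.15 in knockout cells. Wild type replicate 1 exceeded all but 1 knockout array, and the difference was 0.23 with a standard error of 0.176. Its interval of -0.17 to 0.62 had the highest lower bound of the set. Cbx7, in other cell types known to restrain the locus and extend lifespan in culture, read 6.38, 7.70 and 6.63 in wild type cells, a range of 1.32 log2 units. In the knockout it read 7.10, 7.37 and 7.04, between the wild type extremes. The difference of 0.27 (standard error 0.316) became 0.66 when wild type replicate 2 was left out and 0.0048 when wild type replicate 1 was, and the interval ran from -0.45 to 0.98. Cbx8 read 6.29, 5.45 and 6.02 in wild type and 5.94, 6.82 and 5.82 in knockout cells. Knockout replicate 2 was the highest array and wild type replicate 2 the lowest, while the other 4 lay between 5.82 and 6.29. The difference was 0.28 with a standard error of 0.301, an interval of -0.40 to 0.96, and a value of -0.037 without knockout replicate 2.

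Of the PRC2 genes, the catalytic subunit Ezh2 read 10.15, 9.66 and 9.70 in wild type and 9.98, 10.07 and 9.82 in knockout cells. The highest and the lowest array were both wild type. The difference was 0.12 with a standard error of 0.174 and an interval of -0.28 to 0.51. Its paralog Ezh1 read 8.55, 9.25 and 8.49 in wild type and 8.34, 9.28 and 8.40 in knockout cells, so that replicate 2 stood 0.69 above the next array in wild type and 0.87 above it in the knockout. Ezh1 was the only one of the 9 with a mean difference below 0, at -0.09 with a standard error of 0.296 and an interval of -0.76 to 0.58, and it turned to 0.15, 0.074 and 0.044 when wild type replicate 2, knockout replicate 1 or knockout replicate 3 was left out. The scaffold Suz12 read 7.35, 6.91 and 6.94 in wild type and 7.61, 6.97 and 7.31 in knockout cells. Both of its 2 lowest arrays were wild type and replicate 1 was the highest in each genotype, and the difference was 0.23 with a standard error of 0.214 and an interval of -0.26 to 0.71.

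**Figure D3:**
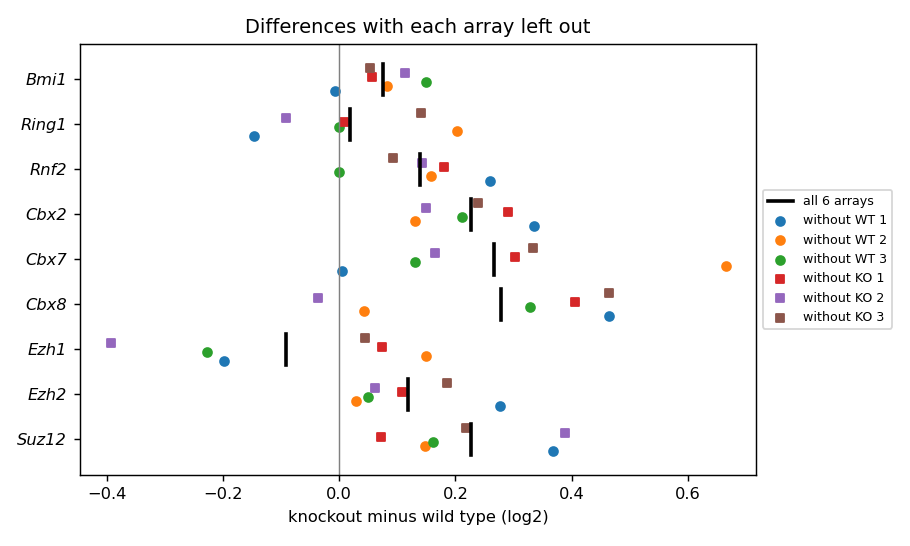
Knockout minus wild type difference on the log2 scale with all 6 arrays (black bars) and with each array left out in turn (circles for a wild type, squares for a knockout array left out). Bmi1, Ring1, Rnf2, Cbx8 and Ezh1 cross 0 when single arrays are left out, whereas Cbx2, Cbx7, Ezh2 and Suz12 stay above it.

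Within genotypes, some of the genes varied far more than most genes on the array. Cbx7, Cbx8 and Ezh1 had pooled SDs of 0.512, 0.493 and 0.474, each larger than that of 95% of genes. Ring1, Cbx7 and Ezh1 were highest at replicate 2 in both genotypes, beside 16.6% of all genes. Cbx2, Cbx8 and Ezh2 instead had their lowest wild type value at replicate 2 and their highest knockout value at replicate 2. These groupings were seen in the values and were not tested. The wild type SD exceeded the knockout SD for 6 of the 9 genes and for 61.5% of all genes.

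**Figure D4:**
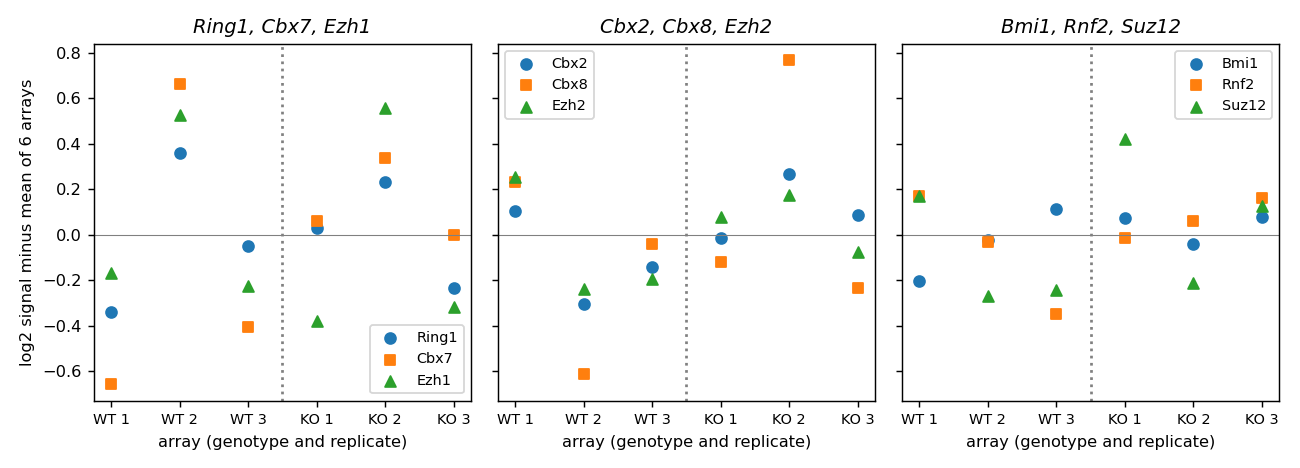
Log2 signal minus the mean of the 6 arrays (vertical axis) for each Polycomb gene on the wild type (WT) and knockout (KO) arrays, in 3 panels arranged after the values were seen. Ring1, Cbx7 and Ezh1 are highest at replicate 2 of both genotypes, and Cbx2, Cbx8 and Ezh2 are lowest at wild type replicate 2 and highest in the knockout at replicate 2.

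The levels were set beside those of dividing cells and of luminal cells, with 18 relations in all and p-values adjusted over them. The mean of 24 mitosis genes was 5.54, 4.99 and 6.29 for wild type replicates 1 to 3, against 5.08, 5.28 and 5.47 for the knockout, so that wild type replicate 3 stood out; 13 of the 24 had a mean signal no higher than the odorant receptor guide. Ezh2 was not high on that array, at 9.70. Over the 6 arrays Ezh2 and the mitosis mean had a Pearson r of -0.201 (exact permutation p = 0.762, adjusted 0.807) and a Spearman rho of 0.257 (exact permutation p = 0.658, adjusted 0.790), and r was 0.103 without wild type replicates 2 and 3, the 2 arrays farthest from the median. Within the 3 wild type arrays r was -0.0170 and within the 3 knockout arrays -0.603. For Cbx7 the relation to the mitosis mean had an r of -0.697 (exact permutation p = 0.112, adjusted 0.454) and a rho of -0.886 (exact permutation p = 0.0333, adjusted 0.262), and r was -0.636 without those 2 arrays.

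Ring1 had the largest r with the luminal mean, at r = 0.814 (exact permutation p = 0.0472, adjusted 0.454) and rho = 0.829 (exact permutation p = 0.0583, adjusted 0.262). Its r was 0.485 without wild type replicates 1 and 2, 0.914 within wild type and 0.983 within knockout arrays. Rnf2 had the opposite sign, with r = -0.726 (exact permutation p = 0.0806, adjusted 0.454) and rho = -0.886 (exact permutation p = 0.0333, adjusted 0.262), -0.896 without the same 2 arrays and -0.662 and -0.760 within wild type and knockout. Cbx2 had r = -0.714 (exact permutation p = 0.104, adjusted 0.454) and rho = -0.657 (exact permutation p = 0.175, adjusted 0.394), with -0.980 within wild type and 0.397 within knockout arrays. Suz12 and Ezh2 had r of -0.713 and -0.688 (exact permutation p = 0.129 and 0.151, adjusted 0.454 for both) and rho of -0.829 and -0.771 (exact permutation p = 0.0583 and 0.103, adjusted 0.262 and 0.308). Within the knockout r was 0.991 for Ezh2, against -0.992 within wild type, and -0.291 for Suz12, against -0.989. None of the 18 relations passed the adjusted threshold of 0.05 in either measure.

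Among 10561 named genes of at least median signal, those whose pattern over the 6 arrays was most like that of Bmi1 were BC003965, Zfp809 and Syngr3, with r of 0.983, 0.972 and 0.968. The genes most like Ezh2 were Hrh3, Nptn and Nppc, with r of 0.990, 0.986 and 0.986. These are descriptions of 6 arrays, and no other Polycomb gene was among them.

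The remaining Polycomb machinery was measured as well. Among 14 further PRC1 genes 8 had a higher and 6 a lower mean in the knockout, with a median log2 difference of 0.06, and none passed at an adjusted or an unadjusted p under 0.05. Pcgf5, a paralog of Bmi1 found in variant PRC1, read 8.99, 8.82 and 8.66 in wild type and 8.66, 8.41 and 8.50 in knockout cells, the only one of the 14 whose groups did not overlap (7.14%, beside 7.68% of all genes), by a margin that vanishes in rounding, with a difference of -0.30 (standard error 0.165, limma adjusted p = 1.0). Rybp, which takes the place of Cbx proteins in variant PRC1, had a difference of 0.32 with a standard error of 0.193. Of 9 further PRC2 genes 6 were higher and 3 lower, with a median of 0.06, and none passed at either threshold. Eed, which binds the methyl mark for PRC2, had a difference of 0.19 and Mtf2, an accessory subunit, of 0.22, with standard errors of 0.170 and 0.180.

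Genes that oppose Polycomb were measured for 15 of 15, with 12 higher and 3 lower and a median of 0.18. None passed the adjusted threshold, and 2 of the 15 had an unadjusted p under 0.05, beside 3.32% of all genes. Mysm1, which removes ubiquitin from histone H2A, read 6.63, 7.15 and 6.78 in wild type and 6.35, 6.08 and 6.57 in knockout cells, all 3 below the wild type arrays. Its difference was -0.52 with a standard error of 0.200 (limma unadjusted p = 0.0296, adjusted p = 1.0). Asxl3, a partner of the H2A deubiquitinase Bap1, read 6.53, 6.38 and 5.87 in wild type and 6.72, 6.57 and 7.45 in knockout cells, a difference of 0.65 with a standard error of 0.268 (limma unadjusted p = 0.0381, adjusted p = 1.0). Groups that did not overlap were found for 3 of the 15, the third being Arid1a, a subunit of the SWI/SNF remodeller, with a difference of 0.29. Such groups were found for 7.68% of all genes.

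At the target locus 4 genes were measured, and the groups of 2, Cdkn2b and Dmrta1, did not overlap. That is 50% of a list of 4, beside 7.68% of all genes. Cdkn2b, the neighbour of Cdkn2a that encodes p15Ink4b, read 6.62, 6.37 and 6.45 in wild type and 6.85, 6.90 and 7.01 in knockout cells. The difference of 0.44 (standard error 0.156) did not pass (limma unadjusted p = 0.0192, adjusted p = 1.0). Dmrta1, a transcription factor gene named here after its values were seen, had means of 3.43 and 3.65, near the odorant receptor median, and a difference of 0.22 with a standard error of 0.122. Mtap, a metabolic gene on the other side of Cdkn2a, had a difference of 0.32 with a standard error of 0.223 and overlapping groups. Probe signal for Cdkn2a itself read 6.42, 5.84 and 6.48 in wild type and 6.25, 6.31 and 6.39 in knockout cells. Both means, 6.25 ± 0.356 (SD, n = 3) and 6.32 ± 0.0703, lay above the odorant receptor guide of 5.53. The difference was 0.07 with a standard error of 0.197 and an interval of -0.37 to 0.52, and it was -0.13 without wild type replicate 2. No drop was seen in the arrays labelled as knockout, but the direction was not settled. The sources used here do not say whether its probes fall within the deleted part, and Trp53 was not analysed here. Neither gene therefore checks the labels.

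Other classical Polycomb targets, developmental regulators that the complexes silence in most tissues, were mostly dim, with 29 of 36 Hox genes and 14 of 22 others no higher in mean signal than the odorant receptor guide. Their counts of higher and lower genes are therefore largely of signal near background. Of the 36 Hox genes 18 were higher and 18 lower, with a median of 0.00, and 1 had an unadjusted p under 0.05: Hoxd8, at 5.90, 5.55 and 5.92 in wild type and 5.42, 5.36 and 5.37 in knockout cells, a difference of -0.41 with a standard error of 0.151 (limma unadjusted p = 0.0244, adjusted p = 1.0). Groups did not overlap for 2 of the 36, or 5.56%, beside the 7.68% of all genes. Of the 22 other developmental regulators 14 were higher and 8 lower, with a median of 0.06, and none passed at either threshold. The splits moved with single arrays. The Hox genes were 11 higher and 25 lower without wild type replicate 2, 24 and 12 without wild type replicate 3, and 23 and 13 without wild type replicate 1, and the other regulators were 9 and 13 without wild type replicate 2. Quantile normalization or median centring gave 17 higher and 19 lower Hox genes. Without genes of below-median signal 4 Hox genes were left, all higher, with a median of 0.11, and 4 other regulators, 2 higher and 2 lower.

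**Figure D5:**
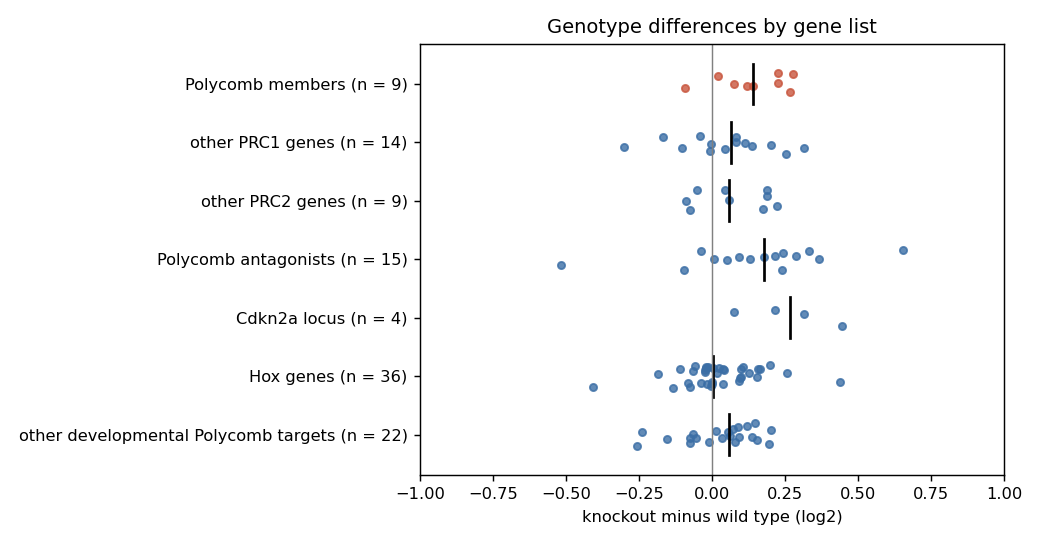
Knockout minus wild type difference on the log2 scale for every measured gene of 7 lists, with a black bar at each list's median; the vertical spread within a list only separates the points. The 9 Polycomb genes (red) lie between -0.09 and 0.28, and the medians of the lists between 0.00 for Hox genes and 0.27 for the 4 genes at the Cdkn2a locus.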

How the data were processed

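The deposited table holds log2 signals, 1 for each probe set and array. The authors made these log2 values with RMA, which corrects background, normalizes between arrays and summarizes probes, in Transcriptome Analysis Console 4.0, per the submitters' processing notes. No dates or batches were used. The platform annotation gave 1 symbol for 23521 of 41345 rows and several for 1814. Where a gene had several rows, that of highest mean was used, which left 22180 genes. Genotypes were compared over all of them with limma 3.58.1 in R 4.3.3 (lmFit and eBayes, the prior following mean signal). Tests were two-sided, and p-values were adjusted by Benjamini-Hochberg with a threshold of 0.05. Differences are knockout minus wild type, with moderated standard errors and 95% intervals, and the fit was tested on simulated data. The p-values measure the spread between these arrays, whose number limits the precision.

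The Polycomb genes and all lists were chosen with earlier results of these data known. Of 226 list entries besides the 9 genes 207 were measured. Krt5 and the 3 erythroid markers were among those not analysed here. The text names all 9 genes, Cdkn2a, Cdkn2b, Mtap, up to 4 genes of smallest p per list, markers that check the sort, and the 3 genes most like Bmi1 and Ezh2. Planned comparisons of paralog proteins were not made.

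The genotypes share replicate numbers. Across genes, deviations from the genotype mean correlated at 0.121, 0.250 and 0.127 for arrays numbered 1, 2 and 3. The pairing rests on these values alone, since the labels do not say what a number stands for, and wild type replicate 1 had a slightly higher correlation of 0.130 with knockout replicate 3. The main fit leaves the pairing out, and a second one takes the number as a block. Other alternatives varied the prior, weights of arrays, scaling between arrays, whether dim genes were kept, which rows stood for a gene and which arrays entered. Exact permutation tests used Python 3.11.15, and figures matplotlib 3.10.9.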

Additional observations from a re-analysis of the deposited data

How the results depend on the processing

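No Polycomb gene passed the threshold under any of the 16 alternatives, and neither did any other gene tested. The lowest adjusted p (limma) among the 9 genes was 0.607, for Suz12. Over all genes it was 0.0749, in a fit without 1 array. With replicate as a block every difference stayed as it was, which the balanced design fixes in advance. No call changed, though standard errors did, and 1112 genes had an unadjusted p under 0.05 in place of 736. That number was 1970 with array weights and 319 without genes of below-median signal, and between 554 and 1788 without single arrays. Of the alternatives that kept all 6 arrays, only array weights, quantile normalization and median centring could alter a difference of the 9 genes. Under those no sign turned. Without single arrays the log2 difference ranged from -0.0073 to 0.15 for Bmi1, from -0.15 to 0.20 for Ring1, from -0.0010 to 0.26 for Rnf2, from -0.037 to 0.46 for Cbx8 and from -0.39 to 0.15 for Ezh1. It ranged from 0.13 to 0.34 for Cbx2, from 0.0048 to 0.66 for Cbx7, from 0.029 to 0.28 for Ezh2 and from 0.071 to 0.39 for Suz12. Groups that did not overlap numbered between 0 and 4 of the 9: 4 without wild type replicate 1 (Cbx2, Ezh2, Rnf2 and Suz12), where 24.3% of all genes had such groups, and 1 each without wild type replicate 2 (Cbx7) or knockout replicate 2 (Ezh1), where 18.4% and 16.4% had them. Cdkn2a ranged from -0.13 to 0.19 without single arrays and was -0.068 with array weights. Without single arrays list medians ranged from -0.033 to 0.13 for the developmental regulators and from -0.17 to 0.054 for E2F and replication genes, and the latter was -0.29 with array weights. Without the 2 farthest arrays the correlation with the mitosis mean turned to -0.565 for Bmi1, 0.996 for Rnf2, 0.269 for Cbx2, -0.0072 for Cbx8 and 0.103 for Ezh2, and that with the luminal mean to -0.450 for Cbx7 and 0.316 for Cbx8. The causes of these turns were not tested beyond the arrays left out.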
